A study of Mus musculus with 16 samples.

Results

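Splicing factors and small nuclear ribonucleoprotein (snRNP) proteins were examined in RNA-seq of mouse colonocytes, the epithelium of the large bowel. Members were taken by gene symbol from the deposited count table: 26 Snrp and Lsm genes, 9 Sf3a and Sf3b genes, and 31 Srsf and Hnrnp genes, 66 of 54392 symbols in all, with 4 symbols ending in -ps left out. The 7 fish oil/pectin libraries and the 9 corn oil/cellulose libraries came from C57BL/6 mice kept on their diet for 3 weeks, and both diets thus differed in fat and fibre together. Fish oil supplies n-3 fatty acids and pectin is a fermentable fibre, whereas corn oil supplies n-6 fatty acids and cellulose is poorly fermented. The source is labelled colonocyte although the extraction text speaks of colon RNA, and 200 ng of total RNA entered each stranded mRNA library. No genotype, transgene, sex or age is given in the labels, which number the libraries as biological replicates without saying that each came from a separate mouse. The p-values below therefore measure the spread between libraries.

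Introns are removed by the spliceosome, whose U1, U2, U4 and U5 snRNPs each carry a ring of Sm proteins around their RNA, while a related ring of LSm proteins binds U6. The SF3a and SF3b complexes belong to the U2 snRNP and hold the branch site. SR proteins (Srsf) and hnRNP proteins bind exons and introns of the transcript itself and promote or repress the use of nearby splice sites, and several SR genes limit their own protein through exons that send the transcript to decay. These proteins serve splicing in all cells of the colon epithelium.

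Library totals ran from 13996288 to 19512755 counts. The names of 5 libraries of each diet carried the prefix GC, and those of 2 fish oil/pectin and 4 corn oil/cellulose libraries carried none. This name form may mark separate handling. All 13 colonocyte markers passed the filter on low counts, with a summed level of 21004 to 34605 CPM (counts scaled to library size) in fish oil/pectin and 21863 to 27218 CPM in corn oil/cellulose libraries. In GC-named libraries the sum was higher with fish oil/pectin, at 29531 to 34605 CPM against 24457 to 27218 CPM. In the other libraries it was lower with fish oil/pectin, at 21004 to 21540 CPM against 21863 to 23535 CPM. Over 100 Y-linked counts were present in 3 of 7 fish oil/pectin and 6 of 9 corn oil/cellulose libraries, and with sex as a covariate all 32 genes given with values by library kept their calls. Beyond these 32, that fit gave 10 SR and hnRNP genes higher, against 12 without the covariate. Over all genes it called 5514, against 5909. Of the 66 members, 65 passed the filter; Srsf12 did not, with 0 to 0.108 CPM in fish oil/pectin and 0 to 0.297 CPM in corn oil/cellulose libraries. Since these are pooled cells, fewer cells of a type and less RNA per cell cannot be told apart.

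Levels per kilobase of the principal transcript spanned a wide range. Hnrnpa2b1, an hnRNP protein that binds UAG-containing RNA, was the highest member at 693 CPM per kb in fish oil/pectin and 575 CPM per kb in corn oil/cellulose libraries (means). Srsf5 averaged 206 CPM per kb with fish oil/pectin and 252 CPM per kb with corn oil/cellulose. In the small snRNP and LSm class Snrpb, a core Sm protein, led with 137 CPM per kb in fish oil/pectin and 98.9 CPM per kb in corn oil/cellulose libraries, close to Snrpe with 131 CPM per kb with fish oil/pectin and 86.4 CPM per kb with corn oil/cellulose. Lsm11, which with Lsm10 builds the U7 snRNP that processes histone transcripts, was the lowest tested member at 2.33 CPM per kb with fish oil/pectin and 2.67 CPM per kb with corn oil/cellulose.

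Promoter windows, 250 bases before to 50 after the start (RefSeq, GRCm38.p6), were found for 56 of the 66 members, and 4 motifs were counted on both strands. These members had 75 windows, and a gene was counted once if any of its windows held the motif. Windows of 9 of 20 small snRNP and LSm genes (45.0%), 17 of 29 SR and hnRNP genes (58.6%) and 2 of 7 SF3 genes (28.6%) held CCAAT, the NF-Y motif, against 42.9% of 10237 genes tested. CCGGAAG, an ETS motif, stood in 6 of 7 SF3 genes (85.7%), in 25.0% of small snRNP and LSm and in 20.7% of SR and hnRNP genes, against 19.9% of genes tested. CACGTG, the E-box, was present in 5.0%, 17.2% and 0.0% of the 3 classes, in the order small snRNP and LSm, SR and hnRNP, SF3, against 11.7%. TATAAA, the TATA box, stood in 2 of 20 small snRNP and LSm genes, 4 of 29 SR and hnRNP genes and 1 of 7 SF3 genes, against 9.04% of genes tested. No motif holds another, and a match is a description of letters and not of binding. The windows of 3 members that the results below turn on, and that differed in direction, are shown with each CCAAT or CCGGAAG match in capitals on the strand of the gene, where CTTCCGG and ATTGG are the matches read on the opposite strand. Snrpd3 (chr10:75517792-75518091, plus strand) and Snrpe (chr1:133610231-133610530, minus strand) encode core Sm proteins that were higher with fish oil/pectin, and Srsf5 (chr12:80945249-80945548, plus strand) encodes an SR protein that was lower. The pair of matches in Snrpe overlap.
Snrpd3: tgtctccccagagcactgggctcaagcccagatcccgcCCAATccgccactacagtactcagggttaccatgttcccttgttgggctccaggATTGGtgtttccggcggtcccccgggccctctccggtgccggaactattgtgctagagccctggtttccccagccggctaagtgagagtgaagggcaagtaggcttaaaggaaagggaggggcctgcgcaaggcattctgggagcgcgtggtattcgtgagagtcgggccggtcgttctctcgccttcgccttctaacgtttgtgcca
Snrpe: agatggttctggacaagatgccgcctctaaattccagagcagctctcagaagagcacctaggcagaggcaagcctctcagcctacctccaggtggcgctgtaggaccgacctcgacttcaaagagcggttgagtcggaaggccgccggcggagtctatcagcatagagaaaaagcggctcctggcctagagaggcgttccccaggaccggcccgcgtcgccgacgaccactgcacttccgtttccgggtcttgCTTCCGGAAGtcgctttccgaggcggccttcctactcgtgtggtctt
Srsf5: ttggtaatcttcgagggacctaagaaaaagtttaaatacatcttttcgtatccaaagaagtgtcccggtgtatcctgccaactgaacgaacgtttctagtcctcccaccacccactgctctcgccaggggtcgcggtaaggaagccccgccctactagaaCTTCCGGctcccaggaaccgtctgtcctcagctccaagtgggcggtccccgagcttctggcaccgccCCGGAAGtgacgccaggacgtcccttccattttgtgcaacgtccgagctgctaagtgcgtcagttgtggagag

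Small snRNP and LSm genes were higher with fish oil/pectin, by a median log2 fold change of 0.55 over 26 genes, whereas SR and hnRNP genes differed little and in both directions, with a median of 0.13 over 30 genes. Of the small snRNP and LSm genes, 23 of 26 rose, 0 fell and 3 did not pass the test; of the SR and hnRNP genes, 12 rose, 3 fell and 15 did not pass; of the SF3 genes, 5 rose, 1 fell and 3 did not pass. The test was edgeR's quasi-likelihood test with the name form as a term and Benjamini-Hochberg adjustment over 13825 genes, at a threshold of 0.05. Among all genes tested 22.1% were higher and 20.6% lower, with a median of -0.01. For the small snRNP and LSm genes the unadjusted p also gave 0 lower genes, as did DESeq2 and limma voom, and both tools again gave 23 higher. Fold changes are fish oil/pectin over corn oil/cellulose. CPM of the groups did not overlap, with fish oil/pectin higher, for 12 of 26 small snRNP and LSm genes, 1 of 30 SR and hnRNP genes and 1 of 9 SF3 genes, against 2.32% of all genes tested. With a score of 21 non-epithelial markers as a covariate edgeR called 0 of the 65 members, with 35 at an unadjusted p under 0.05, and the values of that fit are given with the markers.

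**Figure D1:**
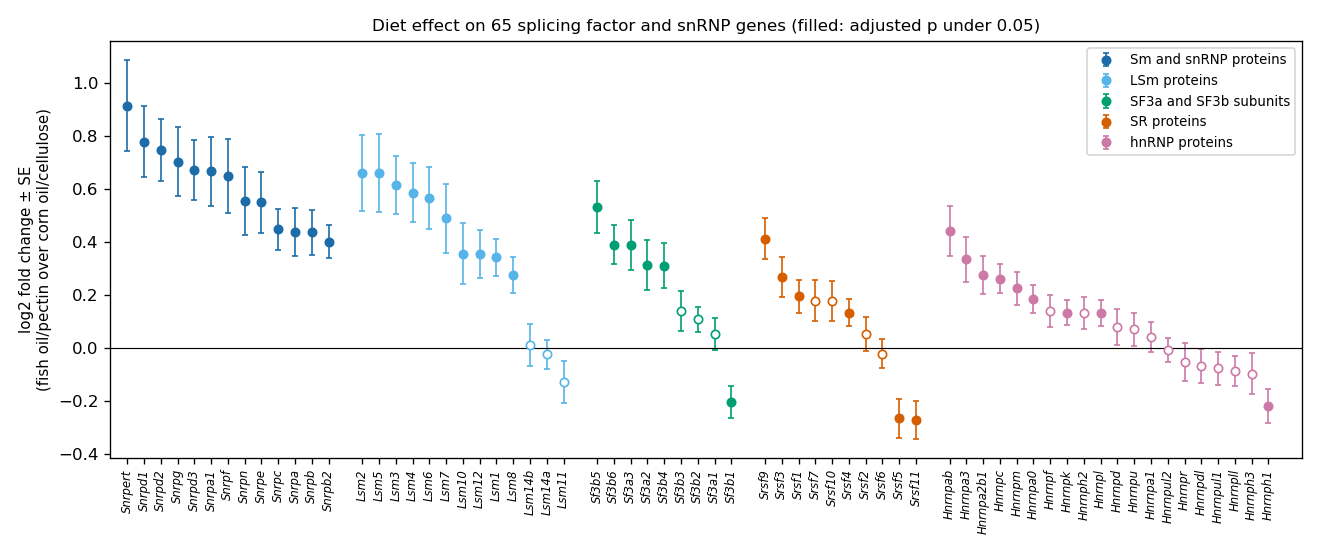
Log2 fold change, fish oil/pectin over corn oil/cellulose, with its standard error (vertical axis) for the 65 tested members, grouped by class and ordered by size within it. Filled points passed the adjusted threshold: all 13 Snrp and 10 of 13 Lsm genes lie above 0 and are filled, while the 10 Srsf and 20 Hnrnp genes lie on both sides of 0.

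The 7 core proteins of the Sm ring all rose, with a median log2 fold change of 0.67. Snrpd2, a core Sm protein, had 39.2, 53.9 and 87.4 CPM (lowest, median, highest) in 7 fish oil/pectin libraries, against 31.1, 32.5 and 36.0 CPM in 9 corn oil/cellulose libraries. The lowest fish oil/pectin library lay above the highest corn oil/cellulose library, and the spread was far wider with fish oil/pectin, where libraries 6 and 7 were the highest. Its log2 fold change was 0.75 ± 0.12 (SE; edgeR adjusted p = 0.000484). Snrpd3, which pairs with Snrpb in the ring, had 64.0, 74.3 and 129 CPM in fish oil/pectin, against 37.9, 49.6 and 60.0 CPM in corn oil/cellulose libraries. The groups did not overlap, and the log2 fold change was 0.67 ± 0.11 (edgeR adjusted p = 0.000566). Snrpe had 49.0, 59.2 and 95.3 CPM with fish oil/pectin, against 38.6, 44.9 and 46.2 CPM with corn oil/cellulose, a log2 fold change of 0.55 ± 0.12 (edgeR adjusted p = 0.00159). Here the groups were again separate, by a narrow margin.

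Snrpb, the most abundant core Sm transcript per length, had 130.01, 149.9 and 214 CPM in fish oil/pectin, against 104, 112 and 131 CPM in corn oil/cellulose libraries. A single fish oil/pectin library lay within the corn oil/cellulose range, and the log2 fold change was 0.44 ± 0.08 (edgeR adjusted p = 0.000943). Snrpd1, Snrpf and Snrpg, the other core members, had log2 fold changes of 0.78, 0.65 and 0.70. Without strand information Snrpf is uncertain, since 65.9% of its exon length lies opposite Ccdc38. Snrpn, an imprinted copy of Snrpb known from brain, was far lower in level, with 9.43, 15.4 and 21.9 CPM in fish oil/pectin, against 7.56, 9.45 and 12.4 CPM in corn oil/cellulose libraries. The groups overlapped, and the log2 fold change was 0.55 ± 0.13 (edgeR adjusted p = 0.00272). Snrpn shares exon sequence with Snurf on the same strand, so the reads of both cannot be told apart. Snrpert, annotated in GENCODE as a processed pseudogene and only 279 bases long, had the highest log2 fold change of the members (0.91 ± 0.17) at 1.88 to 3.43 CPM in fish oil/pectin and 0.822 to 1.87 CPM in corn oil/cellulose libraries, and its reads may be shared with a near copy.

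The proteins that mark single snRNPs moved the same way. All 4 of them rose without overlap of the groups, with a median log2 fold change of 0.44. Snrpb2, which binds a stem-loop of U2, had 37.2, 41.9 and 52.7 CPM in fish oil/pectin, against 30.3, 31.8 and 35.2 CPM in corn oil/cellulose libraries. Its log2 fold change was 0.40 ± 0.06 (edgeR adjusted p = 0.000481), with the lowest p-value among the members. Snrpa1, its partner in U2, had 29.8, 34.2 and 59.8 CPM with fish oil/pectin, against 18.4, 21.6 and 27.7 CPM with corn oil/cellulose, a log2 fold change of 0.67 ± 0.13 (edgeR adjusted p = 0.00108). Snrpa and Snrpc of U1 had log2 fold changes of 0.44 and 0.45.

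Most LSm genes rose, 10 of 13, with a median log2 fold change of 0.36. Lsm1 to Lsm8, which form the nuclear ring on U6 and the cytoplasmic ring that acts in mRNA decay, all rose (8 of 8; median log2 fold change 0.57), whereas among the other 5 Lsm10 and Lsm12 rose, by 0.36 and 0.35, and Lsm11, Lsm14a and Lsm14b did not pass the test. These subgroups were drawn after the values had been seen, and their difference was not tested. Lsm2 had 21.2, 22.8 and 45.9 CPM in fish oil/pectin, against 13.0, 17.2 and 19.53 CPM in corn oil/cellulose libraries, without overlap (log2 fold change 0.66 ± 0.14, edgeR adjusted p = 0.00184). Lsm3 had 22.7, 26.05 and 41.9 CPM with fish oil/pectin, against 12.8, 17.6 and 21.8 CPM with corn oil/cellulose, also without overlap (0.61 ± 0.11, edgeR adjusted p = 0.000694). Lsm4 had 75.8, 101 and 163 CPM in fish oil/pectin, against 56.3, 67.9 and 76.1 CPM in corn oil/cellulose libraries. It overlapped at its edge only, since 6 of 7 fish oil/pectin libraries lay above every corn oil/cellulose library (0.58 ± 0.11, edgeR adjusted p = 0.00094). Lsm5 had 12.8, 15.3 and 28.1 CPM with fish oil/pectin, against 8.15, 11.01 and 13.1 CPM with corn oil/cellulose (0.66 ± 0.15, edgeR adjusted p = 0.00214). Lsm1, specific to the cytoplasmic ring, had 20.2, 25.8 and 30.5 CPM in fish oil/pectin, against 19.4, 20.1 and 21.5 CPM in corn oil/cellulose libraries (0.34 ± 0.07, edgeR adjusted p = 0.00121). Both overlapped through the lowest fish oil/pectin library alone. Lsm14a, a protein of cytoplasmic RNA granules, had 82.2, 89.2 and 111 CPM with fish oil/pectin, against 89.7, 96.8 and 104 CPM with corn oil/cellulose. Its groups overlapped widely, with a log2 fold change of -0.02 ± 0.05 (edgeR adjusted p = 0.765).

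**Figure D2:**
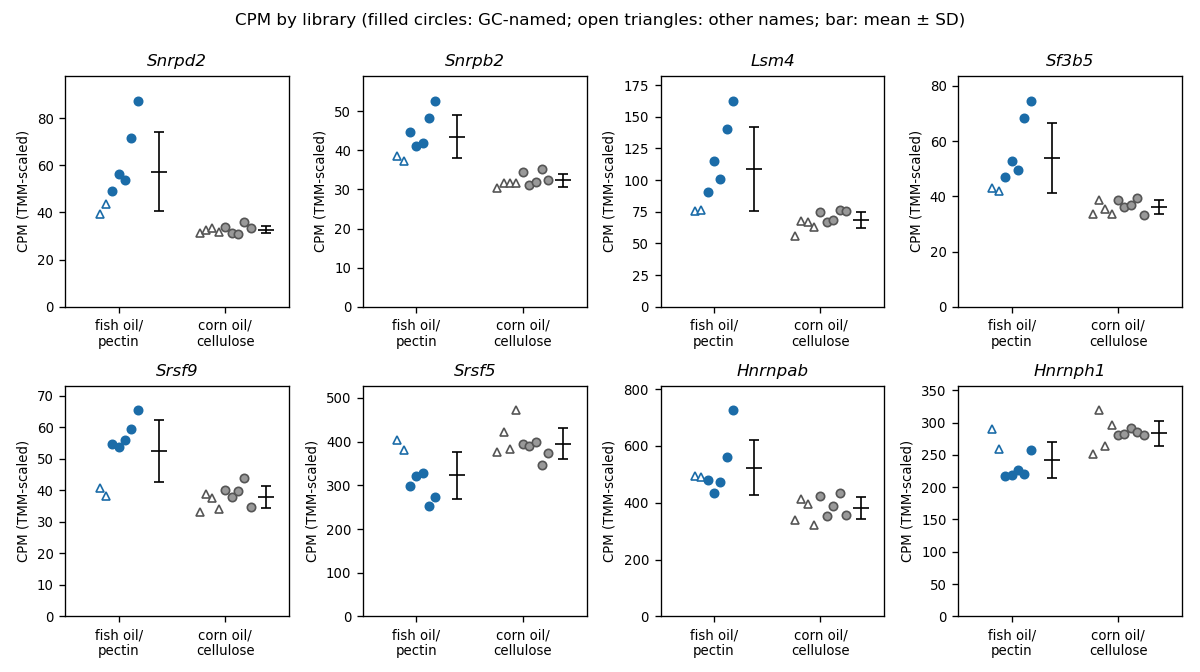
TMM-scaled CPM in each library (vertical axes from 0) for 8 members, fish oil/pectin left and corn oil/cellulose right, with the mean and SD as a bar. Filled circles are GC-named libraries and open triangles the others. In Snrpd2, Snrpb2, Sf3b5 and Hnrnpab every fish oil/pectin library lies above every corn oil/cellulose library; in Srsf5 all 5 and in Hnrnph1 4 of 5 GC-named fish oil/pectin libraries lie below every corn oil/cellulose library.

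The SF3 complexes were divided by subunit. Sf3b5 and Sf3b6, small subunits of SF3b, rose, as did Sf3b4, Sf3a2 and Sf3a3, while Sf3b1, the large scaffold that clamps the branch site, fell. Sf3b5 had 41.8, 49.6 and 74.6 CPM in fish oil/pectin, against 33.1, 36.1 and 39.3 CPM in corn oil/cellulose libraries, without overlap (log2 fold change 0.53 ± 0.10, edgeR adjusted p = 0.000813). Sf3b6, which contacts the branch adenosine, had 74.6, 89.5 and 115 CPM with fish oil/pectin, against 65.4, 67.0 and 76.1 CPM with corn oil/cellulose (0.39 ± 0.07, edgeR adjusted p = 0.000928). Sf3a3 had 49.8, 57.8 and 88.9 CPM in fish oil/pectin, against 39.9, 45.9 and 58.0 CPM in corn oil/cellulose libraries (0.39 ± 0.09, edgeR adjusted p = 0.00356). The groups of both overlapped in part. Sf3b1 had 309, 333 and 415 CPM with fish oil/pectin, against 372, 402 and 434 CPM with corn oil/cellulose. The 5 GC-named fish oil/pectin libraries lay below every corn oil/cellulose library, and the other 2 lay within its range. Its log2 fold change was -0.20 ± 0.06 (edgeR adjusted p = 0.0112), but -0.31 in GC-named libraries and -0.0047 in those without the prefix, and 0.035 once each library's trend on transcript length was removed.

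Among the SR genes 4 of 10 tested rose, 2 fell and 4 did not pass, with a median log2 fold change of 0.15. Srsf9 had 38.2, 54.7 and 65.3 CPM in fish oil/pectin, against 33.0, 37.9 and 43.8 CPM in corn oil/cellulose libraries. The 5 GC-named fish oil/pectin libraries lay above all others (log2 fold change 0.41 ± 0.08, edgeR adjusted p = 0.000833). Srsf3, the smallest SR protein, had 157, 178 and 260 CPM with fish oil/pectin, against 141, 159 and 173 CPM with corn oil/cellulose (0.27 ± 0.08, edgeR adjusted p = 0.00962). Srsf1, which binds exonic enhancers, had 232, 274 and 329 CPM in fish oil/pectin, against 226, 244 and 301 CPM in corn oil/cellulose libraries (0.20 ± 0.06, edgeR adjusted p = 0.0178). Both had overlapping groups. Srsf5 went the other way, with 254, 322 and 404 CPM with fish oil/pectin, against 346, 389.7 and 472 CPM with corn oil/cellulose. Again the 5 GC-named fish oil/pectin libraries lay below every corn oil/cellulose library (-0.26 ± 0.07, edgeR adjusted p = 0.0082). Srsf11 had 117, 138 and 176 CPM in fish oil/pectin, against 159, 173 and 196 CPM in corn oil/cellulose libraries (-0.27 ± 0.07, edgeR adjusted p = 0.00533), with the same 5 libraries below all others. In GC-named libraries Srsf5 was at -0.37 and Srsf11 at -0.40, and in those without the prefix at -0.08 and -0.03. With each library's trend on exon length removed Srsf11 did not pass (-0.10), while Srsf5 did (-0.27). With the trend on principal transcript length removed both passed, at -0.39 for Srsf5 and -0.23 for Srsf11. Srsf2, which like Srsf1 binds enhancers, did not pass, with 299, 312 and 376 CPM with fish oil/pectin and 268, 309.6 and 347 CPM with corn oil/cellulose (0.05 ± 0.06, edgeR adjusted p = 0.52). Srsf7 did not pass either, with 115, 128 and 178 CPM in fish oil/pectin and 102, 118 and 139.5 CPM in corn oil/cellulose libraries (0.18 ± 0.08, edgeR adjusted p = 0.0725). Srsf4 (0.13) passed narrowly at an edgeR adjusted p of 0.0455, and lost its call in 14 of 16 fits that each left out 1 library.

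Among the hnRNP genes 8 of 20 rose, 1 fell and 11 did not pass, with a median log2 fold change of 0.10. Hnrnpab was the member of this class without overlap, at 436, 489 and 725 CPM in fish oil/pectin, against 321, 387 and 434 CPM in corn oil/cellulose libraries (0.44 ± 0.09, edgeR adjusted p = 0.00177). Its exons overlap Phykpl on the opposite strand over 29.1% of their length. Hnrnpa3 had 164, 202 and 253 CPM with fish oil/pectin, against 139.8, 174 and 206 CPM with corn oil/cellulose (0.33 ± 0.08, edgeR adjusted p = 0.00456). Hnrnpc, which binds uridine tracts, had 227, 255 and 311 CPM in fish oil/pectin, against 179, 216 and 242 CPM in corn oil/cellulose libraries (0.26 ± 0.06, edgeR adjusted p = 0.00171). Both kept an overlap, with 3 and 5 fish oil/pectin libraries above every corn oil/cellulose library. Hnrnpa2b1 had 1016, 1112 and 1399 CPM with fish oil/pectin, against 883, 931 and 1132 CPM with corn oil/cellulose (0.28 ± 0.07, edgeR adjusted p = 0.00586). Hnrnpk, which binds C-rich RNA, had 445, 476 and 541 CPM in fish oil/pectin, against 417, 449 and 485 CPM in corn oil/cellulose libraries (0.13 ± 0.05, edgeR adjusted p = 0.029), and its call was lost in 8 of 16 fits that left out 1 library, as was that of Hnrnpl. Hnrnph1, which binds G-rich runs, fell, with 217, 227 and 290.0 CPM with fish oil/pectin, against 251, 282 and 319 CPM with corn oil/cellulose (-0.22 ± 0.07, edgeR adjusted p = 0.0125). It overlapped, with 4 fish oil/pectin libraries below every corn oil/cellulose library. Its log2 fold change was -0.32 in GC-named libraries and -0.04 in those without the prefix. With each library's trend on exon length removed it was -0.12 and did not pass. With the trend on principal transcript length removed it was -0.24 and passed. Hnrnpa1, a repressor of many exons, was close to level at 151, 176 and 201 CPM in fish oil/pectin and 156, 169 and 190.0 CPM in corn oil/cellulose libraries (0.04 ± 0.06, edgeR adjusted p = 0.571). Hnrnpu, an abundant nuclear matrix protein, also did not pass, at 453, 519.9 and 620.4 CPM with fish oil/pectin and 477, 510.3 and 588 CPM with corn oil/cellulose (0.07 ± 0.06, edgeR adjusted p = 0.378).

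Averaged within each library and read over both name forms together, the small snRNP and LSm genes separated the diets and the SR and hnRNP genes did not. The mean log2(CPM + 1) of the 26 small snRNP and LSm genes was 4.85, 5.05 and 5.58 (lowest, median, highest) in fish oil/pectin, against 4.48, 4.65 and 4.76 in corn oil/cellulose libraries, without overlap. That of the 30 SR and hnRNP genes was 7.42, 7.51 and 7.68 in fish oil/pectin, against 7.40, 7.44 and 7.55 in corn oil/cellulose libraries, with a wide overlap. The difference of these log2 means, small minus SR and hnRNP, was -2.75, -2.41 and -2.09 in fish oil/pectin, against -2.96, -2.82 and -2.70 in corn oil/cellulose libraries. In it the 5 GC-named fish oil/pectin libraries stood above all others, and the 2 without the prefix lay inside the corn oil/cellulose range. Among libraries without the prefix the difference was -2.75 to -2.71 with fish oil/pectin and -2.96 to -2.77 with corn oil/cellulose, without overlap. The SR and hnRNP mean there was 7.60 to 7.63 with fish oil/pectin and 7.40 to 7.55 with corn oil/cellulose, also without overlap. In GC-named libraries that mean overlapped, at 7.42 to 7.68 and 7.40 to 7.52 in that order of diets. S phase genes, which mark DNA replication, were also higher: 22 of 22 rose, against 22.1% of all genes tested. Their mean log2(CPM + 1) was 4.91, 5.65 and 6.04 in fish oil/pectin, against 4.62, 4.99 and 5.24 in corn oil/cellulose libraries. By name form they did not run in parallel with the small class. Their median log2 fold change was 0.56 with the prefix and 0.86 without it, against 0.63 and 0.27 for the small class. In fish oil/pectin libraries the S phase mean was 4.91 to 6.04 with the prefix and 5.75 to 5.83 without it. The part of the S phase genes in the result was not tested.

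**Figure D3:**
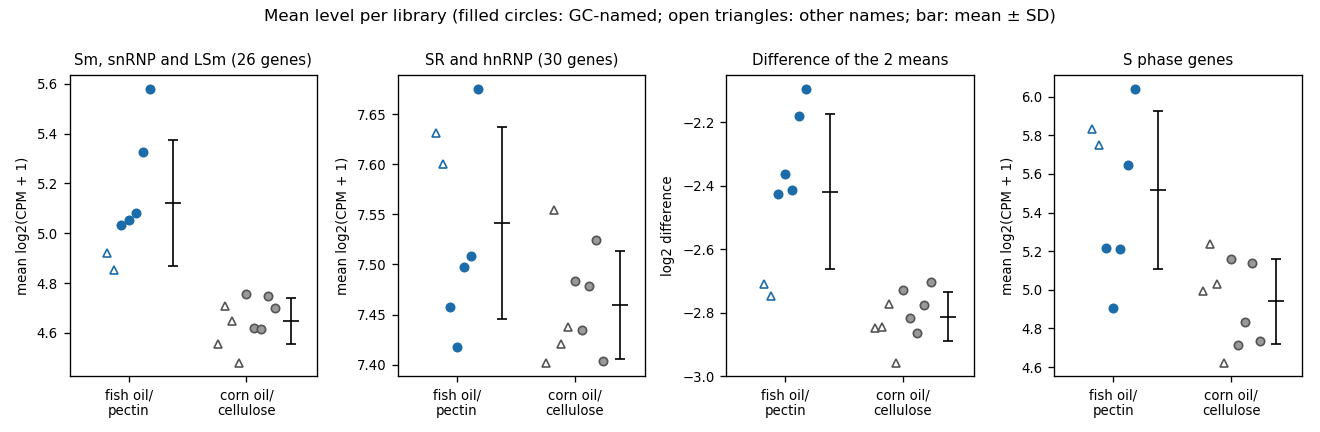
Mean log2(CPM + 1) per library (vertical axes, not from 0) of the small snRNP and LSm genes, of the SR and hnRNP genes, their difference, and the mean of 22 S phase genes, fish oil/pectin left and corn oil/cellulose right, with the mean and SD of each group. Filled circles are GC-named libraries and open triangles the others. The small class runs from 4.85 to 5.58 with fish oil/pectin and from 4.48 to 4.76 with corn oil/cellulose, while the SR and hnRNP ranges overlap.

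The diet effect was also read within each name form. In a joint fit the median log2 fold change of the small snRNP and LSm genes was 0.63 with the prefix and 0.27 without it; that of the SR and hnRNP genes was 0.07 and 0.17 in the same order, and that of the SF3 genes 0.26 and 0.27. In GC-named libraries 23 small snRNP and LSm genes passed and were higher, as did 7 SR and hnRNP genes with 5 lower, against 23.5% of all genes higher and 22.3% lower. In the libraries without the prefix, with 2 fish oil/pectin libraries, 0 members and 0 of all genes (0.0%) passed by edgeR. At an unadjusted p under 0.05 there were 27 members and 2356 genes there, and 24 of the 26 small snRNP and LSm genes were positive, all but Lsm11 and Lsm14b. A separate edgeR fit to these 6 libraries called 10 members, all higher, and 4.34% of all genes higher. The difference of the effect between the forms passed for 0 of 65 members by edgeR, against 8.77% of genes in either direction. Unadjusted edgeR p-values of the difference were under 0.05 for 18 of 65 members and 3559 of 13825 genes. The member nearest to the adjusted threshold was Srsf9, at 0.55 with the prefix and 0.13 without it (edgeR adjusted p of the difference 0.0505). Both adjusted counts, of members and of all genes, rested on single libraries. Over all genes the count ranged from 6 (0.0431%) without fish oil/pectin library 2 to 1765 (12.7%) without fish oil/pectin library 3. Without fish oil/pectin library 3, 7 members passed (10.8% of 65), among them Snrpd2, Lsm4, Sf3b1 and Srsf9. Without fish oil/pectin library 7, 5 members passed (7.69%), beside 12.0% of all genes. There were 2 members (3.08%) without fish oil/pectin library 5, beside 8.13% of all genes, and 2, 1 and 1 without corn oil/cellulose libraries 1, 8 and 9, beside 6.73%, 5.0% and 7.92%. None of these member shares exceeded that of all genes in the same fit.

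Transcript length ran beside the class difference. The median length of the principal transcript was 1108 bases for the small snRNP and LSm genes and 2677 bases for the SR and hnRNP genes, against 2831 bases for all genes tested. Among the 2645 genes with a transcript under 1500 bases, a limit chosen after the lengths were seen, 46.5% were higher and 3.44% lower. Among genes under 1000 bases, all 12 small snRNP and LSm genes were higher with a median log2 fold change of 0.60, beside 0.30 for the 1252 genes of that length. Between 1000 and 1500 bases the medians were 0.67 for 5 small snRNP and LSm genes and 0.25 for 1393 genes. Between 1500 and 2500 bases the median was 0.40 for 3 small snRNP and LSm genes, 0.14 for 12 SR and hnRNP genes and 0.10 for 3208 genes. Between 2500 and 4000 bases it was 0.34 for 5 small snRNP and LSm genes, of which 3 were higher, 0.13 for 12 SR and hnRNP genes and -0.02 for 3897 genes. From 4000 bases up the 1 small snRNP and LSm gene, Lsm11, was at -0.13 and did not pass, beside medians of 0.07 for 5 SR and hnRNP genes and -0.21 for 4020 genes. Within each library, the deviation of a gene's log2(CPM + 1) from its mean over all libraries was fitted on log2 length. The slope of these deviations was -0.21 to -0.08 in GC-named fish oil/pectin libraries and 0.06 to 0.08 in the other 2. In corn oil/cellulose libraries it was 0.02 to 0.13. These slopes are relative to the other libraries and do not give how the level itself changes with length. What sets this slope was not tested. With each library's trend on principal transcript length removed, an alternative added after seeing the data, 20 small snRNP and LSm genes were higher and the other 6 did not pass (median 0.35), while 20.2% of all genes were higher and 10.4% lower. Lsm7, Lsm8 and Lsm10 lost their calls, while the 13 Snrp genes kept theirs. By the same removal 16 SR and hnRNP genes were higher and 3 lower (median 0.15), and 8 SF3 genes were higher (median 0.24). Sf3a1, Sf3b2 and Sf3b3 gained a call there.

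**Figure D4:**
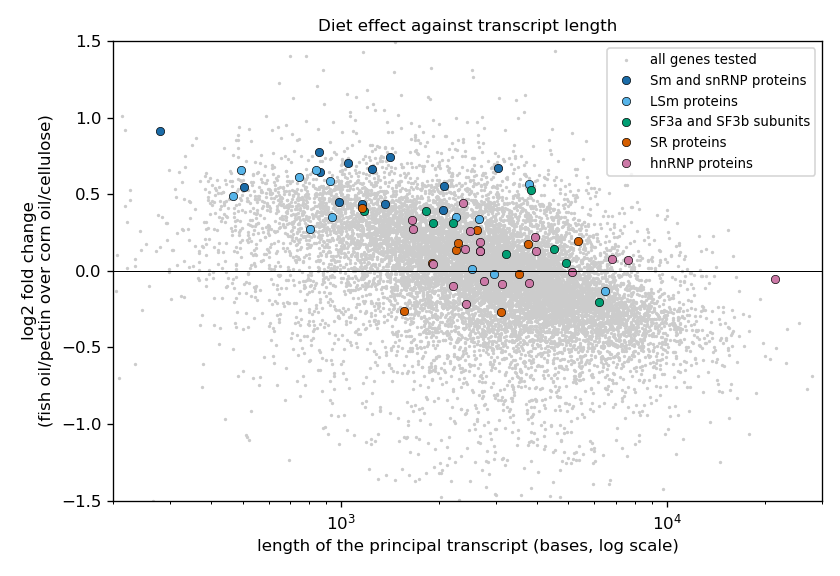
Log2 fold change, fish oil/pectin over corn oil/cellulose (vertical axis), against the length of the principal transcript in bases (horizontal axis, log scale) for genes tested (grey) and members by class (coloured). Of 13770 tested genes with a length, 69 lie outside the axes. Short transcripts lie higher, and the Sm and snRNP genes lie at 0.40 to 0.91.

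Marker lists of cell types differed in direction. Of the 13 colonocyte markers 5 rose and 1 fell. Summed T and NK cell markers were at 14.3 to 42.7 CPM in fish oil/pectin and 11.9 to 74.7 CPM in corn oil/cellulose libraries, and 7 of 10 tested fell. Within GC-named libraries they were at 19.7 to 42.7 CPM with fish oil/pectin and 35.1 to 74.7 CPM with corn oil/cellulose, and in the others at 14.3 to 19.49 CPM and 11.9 to 19.4 CPM in that order of diets. B and plasma cell markers had the highest non-epithelial sum, 232 to 325 CPM in fish oil/pectin and 244 to 288 CPM in corn oil/cellulose libraries. Only 1 of the 7 passed the filter on low counts, and it did not pass the test. The sum thus rests mostly on 1 gene and does not measure these cells as a set. Macrophage and myeloid markers were at 47.6 to 87.7 CPM in fish oil/pectin and 40.7 to 53.7 CPM in corn oil/cellulose libraries, with Cd14 higher at 0.35 ± 0.12 and Lyz2 lower at -0.91 ± 0.21 (edgeR adjusted p = 0.0306 and 0.00261) among 6 tested. Cd14 made up most of this sum, with a mean of 47.5 of 56.6 CPM in fish oil/pectin and 38.0 of 48.5 CPM in corn oil/cellulose libraries. Endothelial markers were at 3.78 to 11.6 CPM with fish oil/pectin and 6.84 to 12.3 CPM with corn oil/cellulose, and neither of those tested passed. Fibroblast and muscle markers were at 0.194 to 1.67 CPM in fish oil/pectin and 0.346 to 4.54 CPM in corn oil/cellulose libraries, and none of 9 passed the filter. Enteric neuron and glia markers were at 1.26 to 2.59 CPM with fish oil/pectin and 2.10 to 4.17 CPM with corn oil/cellulose, with Sox10 at 0 in every library, as was the endothelial marker Cdh5. The part of these cells in the members' values was not tested beyond the score that follows. In the edgeR fit with the non-epithelial score, which called 1 gene in all, the median log2 fold change of the small snRNP and LSm genes was 0.47, with 24 of 26 positive and 19 at an unadjusted p under 0.05. That of the SR and hnRNP genes was 0.15 with 10 of 30, and that of the SF3 genes 0.27 with 6 of 9 at that unadjusted level. Over all genes 3340 had an unadjusted p under 0.05 in that fit.

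Other lists of the splicing machinery were read from the same edgeR fit, against the same 22.1% of all genes higher and 20.6% lower. Of the other snRNP and tri-snRNP proteins 16 of 26 tested rose and 3 fell, with Phf5a, a small SF3b subunit, at 0.57 ± 0.10 (edgeR adjusted p = 0.00063) and Snrnp200, the large U5 helicase, at -0.26 ± 0.08 (edgeR adjusted p = 0.0119). The machinery that loads Sm rings onto snRNA, the SMN complex and the methylosome with their partners, had 13 of 17 higher and 1 lower. Strap was at 0.33 ± 0.06 and Tgs1 at -0.49 ± 0.16 (edgeR adjusted p = 0.000732 and 0.0188). Of the Prp19 complex, helicases and step factors 15 of 33 rose and 4 fell, with Ppil1 at 0.67 ± 0.12 and Prpf38a, which had the lowest p, at 0.34 ± 0.06 (edgeR adjusted p = 0.000666 and 0.000611). Early splice site recognition factors had 4 of 17 higher and 3 lower, with a median log2 fold change of -0.01. U2af1, which reads the AG at the intron end, was at 0.53 ± 0.11 (edgeR adjusted p = 0.00127). Prpf39, which had the lowest p of that list, was at -0.45 ± 0.08 (edgeR adjusted p = 0.000693). Kinases and partners of SR proteins had 7 of 17 lower, and the other 10 did not pass, with Son, a scaffold of nuclear speckles, at -0.42 ± 0.08 (edgeR adjusted p = 0.000756). Of the other splicing regulators 6 of 40 rose and 12 fell, with Raly at 0.36 ± 0.07 and Ptbp2 at -0.45 ± 0.08 (edgeR adjusted p = 0.00114 and 0.000715). Exon junction and decay factors had 6 of 16 higher and 4 lower, with Eif4a3 at 0.47 ± 0.08 and Smg1 at -0.55 ± 0.10 (edgeR adjusted p = 0.000709 and 0.000635). The genes named here as lower were at -0.43 (Snrnp200), -0.72 (Tgs1), -0.57 (Prpf39), -0.57 (Son), -0.55 (Ptbp2) and -0.76 (Smg1) in GC-named libraries. In those without the prefix they were at 0.06, -0.10, -0.23, -0.14, -0.26 and -0.19. With each library's trend on principal transcript length removed, the lists had, in the order above, 15, 9, 14, 4, 1, 11 and 7 higher. Lower were 1, 0, 1, 2, 4, 7 and 1, beside 20.2% of all genes higher and 10.4% lower.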

How the data were processed

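Colonocyte RNA-seq was compared between 7 fish oil/pectin and 9 corn oil/cellulose libraries. The authors deposited raw read counts per gene symbol, 1 column per library with no normalization, and 0 per-sample columns were left unused. The submitters' processing notes name HTSeq 0.11.1, STAR 2.6.0a and the build GRCm38. How strand was set in counting, and the annotation release, are details not given in the sources used here. For overlapping genes and near copies, the division of reads is therefore uncertain. Totals of 13996288 to 19512755 counts set the precision, and genes that passed the filter held 99.9% of all counts. No pair of libraries of one diet agreed within sampling noise (chi-square per degree of freedom 8.20 to 141 over 57 pairs).

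Counts were tested with edgeR 4.0.16 in R 4.3.3 (TMM scaling, filterByExpr on diet, robust quasi-likelihood test, name form as a term) over 13825 genes, adjusted by Benjamini-Hochberg at 0.05. A joint fit gave the effect in each name form and tested their difference. CPM are TMM-scaled and not adjusted for the name form, whereas log2 fold changes are. GENCODE M21 (GRCm38) held 98.9% of the 54392 symbols. Lengths are those of the APPRIS principal transcript, the longest where there were several. For genes without one, the longest transcript tagged as basic was taken, or else the longest of all. Figures used matplotlib 3.10.9. On simulated counts with 13723 genes, changes of 0.5 on the log2 scale were called for 59.6% and changes of 1 for 92.8%, with 1.32% false among the called. There 99 and 97 genes were changed by these amounts, with no effect of name form and no shift shared by many genes. In the data 5909 genes were called, so these rates may not carry over.

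The members, classes and lists were chosen with earlier results of these data known. Values by library are given for 32 genes: up to 3 members per class and direction with the lowest p among those past the threshold, the member of each class with the highest mean CPM, and a set of members named in the design. Genes of other lists are among the 2 per list and direction with the lowest p. Other members that the text names were chosen after their values were seen. Alternatives numbered 33, of which 16 left out 1 library each. They covered the name form term, a replicate block, library subsets, scalings, filters, DESeq2 1.42.0, limma 3.58.1 voom with quality weights, length and GC trends (loess, span 0.3) and marker or sex covariates. The trend on principal transcript length, the sex covariate (over 100 counts of 4 Y-linked genes) and leaving out libraries in the joint fit were added after seeing the data.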

Additional observations from a re-analysis of the deposited data

Results flagged for a closer look

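Hnrnpa2b1 was at 1132 CPM in corn oil/cellulose library 2, while the other 8 libraries of that diet lay between 883 and 980.1 CPM; the gap to its nearest neighbour was 0.611 of the range of the group. This was 1 flag in 64 groups checked, 2 for each of the 32 genes given by library, and chance flags about 1 in 20 groups.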

How the results depend on the processing

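Across the 33 alternatives the 32 genes given by library kept direction and side of the threshold in 937 of the values computed, lost the call in 94, gained one in 5 and changed sign in 20. Sf3b1, which passed the test, changed sign in 4 of these, at 0.0079 in libraries lacking the prefix, 0.045 with the exon length trend removed, 0.049 with exon length and GC trends removed and 0.035 with the principal transcript length trend removed. The other 16 were in 4 genes that did not pass in any of these fits. In GC-named libraries alone Hnrnpa1 was at -0.031, Hnrnpu at -0.026 and Srsf2 at -0.00998. With the exon length trend removed Hnrnpa1 was at -0.0096, Srsf2 at -0.011 and Lsm14a at 0.083. With exon length and GC trends removed Hnrnpa1 was at -0.0035, Srsf2 at -0.012 and Lsm14a at 0.087. With the principal transcript length trend removed Hnrnpa1 was at -0.029, Srsf2 at -0.021 and Lsm14a at 0.0052. Scaled to total counts Hnrnpa1 was at -0.028 and Srsf2 at -0.018. Lsm14a was at 0.15 without the prefix and 0.064 with the non-epithelial score. The main counts were 5909 genes called, 23 small snRNP and LSm genes higher, 12 SR and hnRNP genes higher and 3 lower, and 5 SF3 genes higher.

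In GC-named libraries alone 5 SR and hnRNP genes were higher (median log2 fold change 0.049) and 3 SF3 genes. In the libraries without the prefix alone 900 genes were called, with 5 small snRNP and LSm genes higher (median 0.28), 2 SR and hnRNP genes higher and 0 lower, and 3 SF3 genes higher. In the libraries numbered below 800 alone, which hold all 7 fish oil/pectin and 4 corn oil/cellulose libraries, the counts were 2230 genes, 11 small snRNP and LSm genes, 2 SR and hnRNP genes higher and 0 lower, and 3 SF3 genes. These subsets hold fewer libraries. Scaling to total counts left 6 SR and hnRNP genes higher, and over all genes 2247 were higher and 3695 lower, against 3055 and 2854 with TMM. With the exon length trend removed 1 SR and hnRNP gene was lower, as with exon length and GC trends removed. With the principal transcript length trend removed the small snRNP and LSm median was 0.35 and 8 SF3 genes were higher. With the non-epithelial score as a covariate 1 gene was called, with 0 small snRNP and LSm, 0 SR and hnRNP (either direction) and 0 SF3 genes. Beyond what fewer libraries or the covariate themselves change, the cause was not tested.

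With 1 library left out the ranges were 5043 to 6001 genes called, 22 to 23 small snRNP and LSm genes higher, 9 to 15 SR and hnRNP genes higher with 3 to 3 lower, and 5 to 5 SF3 genes higher. The medians ranged from 0.45 to 0.60 for small snRNP and LSm, 0.10 to 0.13 for SR and hnRNP and 0.23 to 0.35 for SF3 genes, and members differing between name forms from 0 to 7.

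A replicate block on the label's replicate number left 3502 genes called, 5 SR and hnRNP genes higher and 0 lower, and 22 small snRNP and LSm genes higher (median 0.59). Deviations of same-numbered libraries from their diet mean correlated between -0.08 and 0.51, with 0 of 7 numbers matching best with themselves, so the numbers were not taken as pairs. Depth limits the low members, such as Snrpert and Lsm7.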

Other observations

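Transcripts annotated in GENCODE as targets of nonsense-mediated decay were listed for 9 of 10 tested SR genes, 10 of 20 hnRNP genes, 8 of 26 small snRNP and LSm genes (30.8%) and 1 of 9 SF3 genes (11.1%), against 25.9% of all genes tested. The gene-level counts do not separate such transcripts from the coding ones.

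The coefficient of variation of CPM was larger in fish oil/pectin than in corn oil/cellulose libraries for 24 of 26 small snRNP and LSm genes, 27 of 30 SR and hnRNP genes and 9 of 9 SF3 genes, 92.3% of the 65 members, against 77.8% of all genes tested.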
